A study of Mus musculus with 23 samples.

Results

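Cells in G2 or mitosis were singled out among mouse blood stem and progenitor cells that had been transplanted, and were compared between cells lacking Ezh2, cells lacking Jarid2 and Control cells. They were chosen by their own RNA: of 8 marker genes (Ccnb1, Ccnb2, Cenpa, Cdc20, Ube2c, Aspm, Cenpe and Knstrn), a cell had to show at least 1 unique molecular identifier (UMI, a count of 1 captured RNA molecule) for at least 5. A barcode was kept as a cell when it held at least 1000 UMIs and 500 genes and at most 10% of its UMIs came from mitochondrial genes. The rule picked 7296 of 28485 kept cells, or 25.6%, from 5 libraries. The series holds 23 samples in all, of which the 5 transplant and 6 baseline gene expression libraries are used here. The antibody counts of the baseline cells, listed as separate samples, are used too.

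The donor mice carried Mx1-Cre, a recombinase driven by an interferon-inducible promoter, and the knockout donors also carried floxed alleles of Ezh2 or Jarid2. The Control carried Mx1-Cre as well. For the transplant, 500000 CD45.2 donor marrow cells were given with 500000 CD45.1 competitor cells to lethally irradiated recipients. After 18 weeks, CD45.2 cells with c-Kit and Sca1 and without mature lineage markers (KSL cells) were sorted from the recipients' marrow. There was 1 Control library, with 2 libraries each for Ezh2 KO and Jarid2 KO. In the baseline experiment, KSL cells came from untransplanted mice 2 months old, with 1 male and 1 female library for each of the 3 genotypes, and 6 surface proteins were read with barcoded antibodies. The labels do not say whether the 2 transplant libraries of a knockout came from separate animals, so p-values there measure only the spread between these libraries, and with 1 Control library the fits borrow that spread from the knockout pairs.

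A dividing cell builds up cyclin B after replicating its DNA, and cyclin B with the kinase Cdk1 drives it into mitosis. Kinesins and spindle proteins then line up the chromosomes, which attach to the spindle at their centromeres. The spindle checkpoint holds the cell until all chromosomes are attached. The anaphase-promoting complex with Cdc20 then destroys cyclin B so that the cell can divide. Ezh2 is the enzyme of Polycomb repressive complex 2, which silences genes by methylating histone H3 at lysine 27, and Jarid2 is a cofactor that helps bring the complex to its sites. Most blood stem cells rest, while the progenitors that make up the rest of the KSL gate divide often.

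The promoters of late cell cycle genes commonly hold a cell cycle homology region (CHR, letters TTTGAA) near the start site and CCAAT letters upstream, and both were searched on both strands of the RefSeq promoters (build GRCm38.p6, 250 bases before to 50 after the start). Of the 8 rule markers, 5 held TTTGAA and 7 held CCAAT, and 6 held at least 2 copies of CCAAT. The promoter of Ccnb2 is shown because it holds both letter groups more than once, those of Cdc20 and Aspm because they hold both, and that of Ccnb1, the gene for cyclin B1, because it holds CCAAT without TTTGAA. Capitals mark TTTGAA (reverse complement TTCAAA) and the letters CCAAT (reverse complement ATTGG), and the sequences read 5′ to 3′ on the gene's strand.
Ccnb2, chr9:70421505-70421804, minus strand: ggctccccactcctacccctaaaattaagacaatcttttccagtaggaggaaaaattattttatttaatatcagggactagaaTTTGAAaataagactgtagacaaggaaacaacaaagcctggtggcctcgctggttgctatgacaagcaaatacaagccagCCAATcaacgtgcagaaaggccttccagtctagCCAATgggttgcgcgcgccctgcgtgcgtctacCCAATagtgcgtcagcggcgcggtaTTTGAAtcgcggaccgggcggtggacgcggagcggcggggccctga
Cdc20, chr4:118437294-118437593, minus strand: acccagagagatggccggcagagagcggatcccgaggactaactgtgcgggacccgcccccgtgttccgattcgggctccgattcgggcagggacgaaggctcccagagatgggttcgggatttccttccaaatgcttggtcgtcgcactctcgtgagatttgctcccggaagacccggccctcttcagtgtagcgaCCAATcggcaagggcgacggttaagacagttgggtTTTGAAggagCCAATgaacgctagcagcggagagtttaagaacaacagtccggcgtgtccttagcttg
Aspm, chr1:139454523-139454822, plus strand: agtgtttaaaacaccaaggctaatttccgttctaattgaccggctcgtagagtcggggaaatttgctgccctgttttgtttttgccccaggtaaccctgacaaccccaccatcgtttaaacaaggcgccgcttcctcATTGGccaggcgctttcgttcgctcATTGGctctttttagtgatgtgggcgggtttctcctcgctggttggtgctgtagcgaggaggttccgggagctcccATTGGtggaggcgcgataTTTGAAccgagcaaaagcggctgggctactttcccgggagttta
Ccnb1, chr13:100786437-100786736, minus strand: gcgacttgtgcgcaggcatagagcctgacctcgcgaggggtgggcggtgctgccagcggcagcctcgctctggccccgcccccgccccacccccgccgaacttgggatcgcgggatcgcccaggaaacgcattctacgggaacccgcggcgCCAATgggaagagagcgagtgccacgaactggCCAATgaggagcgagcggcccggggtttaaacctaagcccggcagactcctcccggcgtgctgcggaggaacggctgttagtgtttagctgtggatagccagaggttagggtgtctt

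Among 27025 promoters, 1 for each gene, 18.1% held TTTGAA and 37.9% held CCAAT. The letters TTTGAA stood in 21 of 30 promoters of the kinesin, spindle and cytokinesis genes (70.0%). They stood in 12 of 19 promoters of the chromosome structure and centromere genes (63.2%) and 6 of 15 of the mitotic entry genes (40.0%). They also stood in 10 of 19 of the checkpoint and anaphase-promoting complex genes (52.6%). TTTGAA stood in 4 of 27 promoters of the DNA replication genes (14.8%), and CCAAT in 17 of those 27 (63.0%). These matches describe letters and show no binding.

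Most of the other mitosis genes were also higher in these cells. Outside the 8 rule markers, 32 of 32 kinesin, spindle and cytokinesis genes and 23 of 23 chromosome structure and centromere genes had higher CPM (UMIs of a gene scaled to a common library total) in these cells than in the other cells of the same library in all 5 libraries. So did 19 of 20 mitotic entry kinases and cyclins and 17 of 19 genes of the spindle checkpoint and anaphase-promoting complex. Among 8304 genes of at least 10 CPM, 32.9% were higher in all 5 libraries and 38.8% lower. These values come from the contrast that chose the cells, so they describe them and carry no test.

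Among 3186 genes of at least 50 CPM, 85 were over 2-fold higher in these cells in all 5 libraries and 4 were over 2-fold lower. Outside the rule markers the highest mean log2 ratio, with 1 CPM added to both values, belonged to Hmmr, a receptor for hyaluronan that also acts on the spindle, at 3.57 ± 0.27 (SD, n = 5). It averaged 174 CPM in cells in G2 or mitosis and 14.0 CPM in the others. Plk1, a kinase of mitotic entry, followed at 3.35 ± 0.24, and Cenpf, a kinetochore protein, at 3.24 ± 0.19. Nusap1 and Tpx2, which bind spindle microtubules, stood at 3.21 ± 0.19 and 2.79 ± 0.14. Mki67, the gene of the proliferation marker Ki-67, averaged 722 CPM against 131.

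The genes lowest in these cells were of other kinds. Ccnd1, a D cyclin of G1, stood at -1.36 ± 0.09, and Ung, which removes uracil from DNA, at -1.68 ± 0.07 with 19.4 CPM against 64.2. Ltb, a lymphoid cytokine gene, stood at -1.99 ± 0.23. Of 17 stress and immediate early genes, 12 were lower in all 5 libraries and 0 higher in all 5, beside 38.8% and 32.9% of all genes, with Fos at -0.96 ± 0.14 and Junb at -0.91 ± 0.20. Between 2 and 4 of the 17 were higher in each library, and the stem cell regulator Hlf stood at -0.73 ± 0.26. The immunoglobulin gene Igkc averaged 9.67 CPM against 998, but its ratio ranged from -6.77 to -0.02 between libraries.

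The rule draws its line through a continuum. In the 5 libraries together, 2053 cells detected 4 of the 8 markers, 1577 detected 5 and 2946 detected all 8. Summed over its list, the kinesin, spindle and cytokinesis RNA rose at each step, from a median over libraries of 2590 CPM at 0 markers to 4240 at 4, 4810 at 5 and 8840 at 8. The DNA replication list climbed from 2690 CPM at 0 markers to 4610 at 4. It was still 4450 at 5, 4070 at 6 and 3370 at 7, and fell to 2210 at 8. The 1577 cells with 5 markers, 1347 with 6 and 1426 with 7 thus held more replication RNA than cells with 0. The name G2 or mitosis is therefore looser for them. Stem cell markers fell from 998 CPM at 0 markers to 429 at 4, and were 364 at 5 and 518 at 8. The summed RNA of Polycomb repressive complex 2 genes changed little along the same axis, with medians of 860 CPM at 0, 1030 at 4 and 990 at 8. That sum hides moves in both directions. By gene, 5 of the 12 were higher in these cells in all 5 libraries and 6 were lower, beside 32.9% and 38.8% of all genes.

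**Figure D1:**
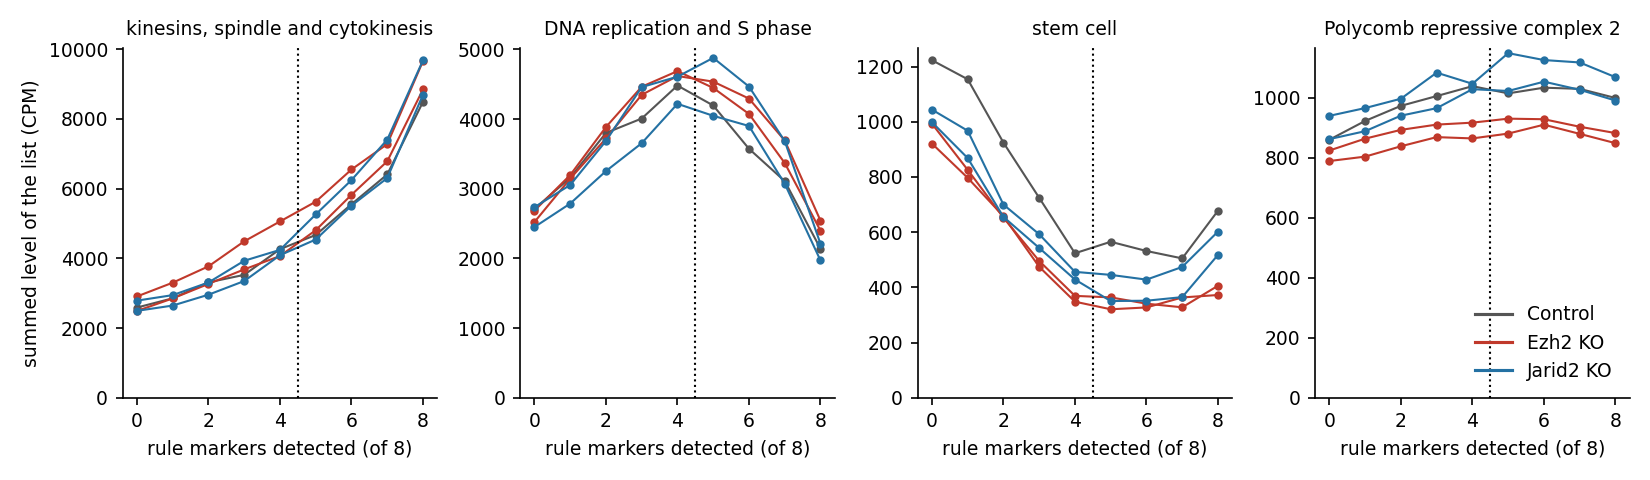
Summed level in CPM of 4 gene lists (y axis) against the number of rule markers detected per cell (x axis, 0 to 8), 1 line per transplant library coloured by genotype; the dotted line marks the rule. Kinesin and spindle genes climb to 8490 to 9680 CPM, DNA replication genes peak near 4 and 5 markers, and stem cell markers drop before the line.

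Depth moves with this rule, because a deeper cell detects more markers. Cells in G2 or mitosis had median UMI counts of 21042 to 27911 per library and the other cells 10134 to 14713, a ratio of 1.78 to 2.08. Mitotic cells also hold more RNA, and the parts of RNA content and chance detection in that ratio cannot be told apart. Predicted doublets made up 6.14% to 10.4% of these cells and 6.15% to 6.79% of the others.

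The share of cells in G2 or mitosis did not separate the genotypes at full depth. It was 25.1% in the Control library, 27.6% and 24.1% in the Ezh2 KO libraries, with 24.0% and 26.9% in the Jarid2 KO libraries. The Control value lies between the 2 values of each knockout. The exact 95% binomial interval of the Control share, which covers counting error only, ran from 23.9% to 26.4%. The Ezh2 KO mean of 25.9% ± 2.47 (SD, n = 2) was 0.736 percentage points above the Control (exact permutation p = 1, two-sided) and the Jarid2 KO mean of 25.5% ± 2.04 (SD, n = 2) was 0.333 points above it (exact permutation p = 1). Jarid2 KO lay 0.403 points below Ezh2 KO (exact permutation p = 0.667), and no comparison of this size can give a p below 0.333. Barcodes over the mitochondrial limit made up 43.4% of the Control, 25.7% and 27.4% of Ezh2 KO, with 36.6% and 37.5% of Jarid2 KO. With a limit of 20% the differences from Control were 1.90 points for Ezh2 KO and 0.888 for Jarid2 KO.

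When each cell was thinned to 5000 UMIs, the shares were 10.4% in the Control, 10.4% and 11.3% in Ezh2 KO, with 9.44% and 11.4% in Jarid2 KO. Thinning left out 665 Control, 363 and 486 Ezh2 KO, and 828 and 440 Jarid2 KO cells. Both Ezh2 KO libraries then lay above the Control, the lower one barely (10.39% against 10.38%). Their mean was 0.462 points above it (exact permutation p = 0.667). Among cells with fewer than 3 B lineage markers that difference was -0.0715 points, with Ezh2 KO at 9.74% and 10.9% and the Control at 10.4%. At 3000 UMIs both Ezh2 KO libraries (6.04% and 6.54%) lay above the Control (5.33%). Their mean was then 0.955 points above it (exact permutation p = 0.333, the smallest possible), while Jarid2 KO stood at 5.17% and 7.37%. At 5000 UMIs, 33 to 77 cells per library carried at least 3 T or NK cell markers. Of these, 0.0% to 5.20% met the mitosis rule. A share of 0 of 33 such cells in the Control has an exact upper limit of 10.6%.

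At baseline the Ezh2 KO libraries stood above the rest. The same rule took 14.2% and 13.2% of Control cells, 12.3% and 13.5% of Jarid2 KO cells, and 20.5% and 16.9% of Ezh2 KO cells (male, then female). Both Ezh2 KO values exceeded all 4 others, by a mean of 4.98 points over the Control (exact permutation p = 0.333, the smallest possible). At 5000 UMIs both baseline Ezh2 KO libraries again stood highest, at 11.9% and 10.0%. Control stood at 8.20% and 6.40% and Jarid2 KO at 6.61% and 6.65%, and those ranges overlapped. B lineage cells moved with this share, and their part in it was not tested. Among cells with fewer than 3 B lineage markers at 5000 UMIs, Ezh2 KO stood at 7.32% and 6.71%. Control stood there at 6.25% and 5.77%, and Jarid2 KO at 5.81% and 6.06%, so both Ezh2 KO values still exceeded the 4 others. The gap between Ezh2 KO and Control was 1.01 points among these cells, in place of 3.68. The transplant and baseline libraries differed at full depth (25.6% ± 1.63, n = 5, against 15.1% ± 3.07, n = 6; exact permutation p = 0.00433) and less so at 5000 UMIs (10.6% ± 0.80 against 8.30% ± 2.25; exact permutation p = 0.0693). Transplantation and the version of Cell Ranger differ between the experiments and cannot be told apart.

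**Figure D2:**
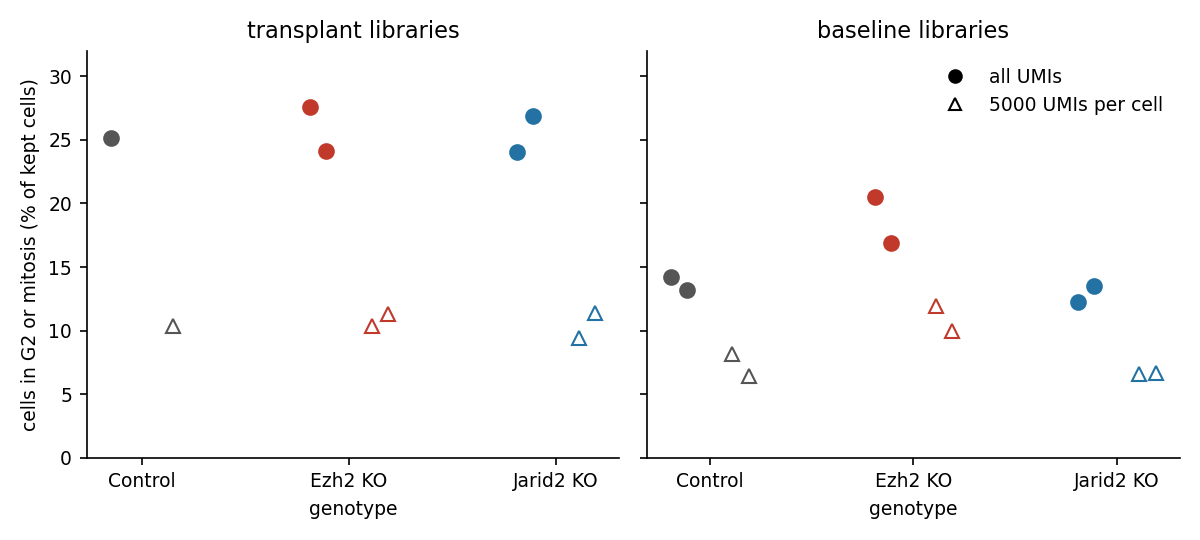
Percent of kept cells in G2 or mitosis (y axis) by genotype (x axis), 1 point per library, for transplant (left) and baseline (right); filled circles use all UMIs and open triangles 5000 UMIs per cell. Transplant shares of the 3 genotypes overlap at full depth, and the baseline Ezh2 KO libraries lie above the others.

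Deletion of Ezh2 was visible in the RNA of the dividing cells, and deletion of Jarid2 was not. Ezh2 stood at 211 CPM in the Control, 41.5 and 49.9 in Ezh2 KO, with 196 and 219 in Jarid2 KO. It fell by 2.28 on the log2 scale (SE 0.14) between Ezh2 KO and Control, with an adjusted p of 0.000249 by edgeR's quasi-likelihood test with Benjamini-Hochberg adjustment, which gave the adjusted p-values that follow unless another tool is named. In the other transplanted cells Ezh2 stood at 167 CPM in the Control and 37.5 and 45.7 in Ezh2 KO. In baseline cells that met the rule, Ezh2 stood at 225 and 212 CPM in Ezh2 KO and at 370 and 301 in the Control. Jarid2 stood at 36.7 CPM in the Control, 38.0 and 41.8 in Ezh2 KO, with 55.8 and 56.3 in Jarid2 KO, so the libraries labelled Jarid2 KO were the highest (log2 0.55 against Control, adjusted p = 0.275, and 0.50 against Ezh2 KO, adjusted p = 0.0217). The second call was lost in male cells alone and without either Ezh2 KO library, with adjusted p up to 0.163. Counts of a gene's RNA need not show an exon deletion, so this gene does not check the Jarid2 KO labels.

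The libraries differed in RNA that marks sex, and the labels give no sex for the transplanted libraries. Among cells in G2 or mitosis, 62.2% in the Control and 47.9% and 46.7% in Jarid2 KO held Xist UMIs and no Y-linked UMI, against 0.0% in both Ezh2 KO libraries. In the Control and Jarid2 KO, 14.2% to 18.8% of these cells held both, against 9.17% to 11.6% of the other cells. The labels do not explain cells of both kinds in 1 library, and whether donors were pooled or host cells are present was not tested. The total counts of calls, and the counts of most gene lists described below, are given also for cells with Y-linked UMIs and no Xist UMI (male cells), of which the Control had 252 in G2 or mitosis.

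Outside the 8 rule markers, no gene of the fixed lists of the division machinery passed the test between genotypes in these cells. Of 14098 genes tested in the sums of cells in G2 or mitosis, 340 (2.41%) were higher and 128 (0.908%) lower in Ezh2 KO than in Control. None of 20 mitotic entry genes, 19 checkpoint and anaphase-promoting complex genes, 32 kinesin, spindle and cytokinesis genes, 23 chromosome structure genes or 32 DNA replication genes passed edgeR's test in any of the 3 genotype comparisons. At an unadjusted p under 0.05 there were 1, 2 and 3 of these 126 genes (Ezh2 KO against Control, Jarid2 KO against Control, and Jarid2 KO against Ezh2 KO), and DESeq2 called 0 in each. Their median log2 differences in Ezh2 KO against Control were 0.05, 0.04, 0.01, 0.02 and 0.07, beside 0.01 over all genes. In Jarid2 KO against Control the medians were 0.09, -0.01, 0.05, 0.02 and 0.02. The 8 markers picked the cells, so their levels are a description only, with log2 differences of -0.02 to 0.29 from Control. The other mitosis lists rise with those markers. Choosing cells by the markers therefore limits how far these genes could differ, and the absence of calls does not show that division was unaltered.

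The genes that did differ in Ezh2 KO were led by the B lineage. Of 12 B lineage genes, 11 were higher and 0 lower than in Control, with a list median of 5.03 on the log2 scale, and 9 of 11 tested were higher in male cells alone. Cd79a, part of the B cell receptor complex, stood at 1.88 CPM in the Control, 111 and 92.0 in Ezh2 KO, with 4.55 and 9.69 in Jarid2 KO. Its log2 difference in Ezh2 KO was 5.68 (SE 0.45, adjusted p = 0.000733). Vpreb1 and Igll1, which form the surrogate light chain of B cell precursors, stood at 4.65 and 1.46 CPM in the Control. In Ezh2 KO, Vpreb1 stood at 128 and 114 CPM and Igll1 at 74.6 and 58.3. The transcription factor Ebf1, which commits cells to the B lineage, rose from 2.84 CPM to 98.9 and 71.9 (log2 4.84, SE 0.29, adjusted p = 0.000222). In each of these genes both Ezh2 KO libraries lay above the other 3. The rise of Cd79a was also present in the other cells. In the other cells Cd79a stood at 1.44 CPM in the Control and 75.4 and 52.5 in Ezh2 KO. Its change from Control was not called as different between the cell states (log2 difference 0.32, SE 0.34). Between the knockouts it was called as different, at -1.30 for Jarid2 KO against Ezh2 KO.

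More of the dividing cells carried the B lineage program. At 5000 UMIs, cells with at least 3 B lineage markers made up 0.482% of the cells in G2 or mitosis in the Control, 14.4% and 9.86% in Ezh2 KO, with 1.83% and 2.12% in Jarid2 KO. Among the other cells the shares were 0.475% in the Control, 8.003% and 5.99% in Ezh2 KO, with 1.15% and 1.81% in Jarid2 KO. Seen the other way, 17.3% of the B-marked cells of each Ezh2 KO library were in G2 or mitosis, against 9.74% and 10.9% of its cells without those markers. The Control had only 19 B-marked cells, 2 of them in G2 or mitosis. At baseline, B-marked cells made up 52.1% and 41.0% of the Ezh2 KO cells in G2 or mitosis, 29.9% and 12.2% of the Control ones and 15.4% and 12.8% of the Jarid2 KO ones. In sums over cells, more cells of a type and more RNA per cell cannot be told apart.

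Other lymphoid genes moved the same way. Of 12 lymphoid genes, 6 were higher and 0 lower in Ezh2 KO, with a list median of 0.83. Il7r, the receptor for interleukin 7, stood at 3.73 CPM in the Control, 29.4 and 25.0 in Ezh2 KO, with 8.81 and 8.999 in Jarid2 KO (log2 2.80, SE 0.19, adjusted p = 0.000327 in Ezh2 KO). Dntt, which adds bases at antigen receptor joints, stood at 94.2 CPM in the Control, 430 and 425 in Ezh2 KO, with 158 and 185 in Jarid2 KO (log2 2.11 in Ezh2 KO, adjusted p = 0.000753). Rag1, Rag2, Ccr9 and Mn1 were the other 4. Male cells alone had 3 of the 12 higher.

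Beyond the lymphoid lists, the largest rises included Bex4 (log2 4.01), Ly6d, an early lymphoid surface gene (3.96), Mzb1 (5.52) and the lens filament gene Bfsp2 (3.73). Bex4 stood at 2.20 CPM in the Control, 39.8 and 34.5 in Ezh2 KO, with 0.857 and 0.908 in Jarid2 KO. Ly6d lost its call in male cells alone, and so did Vpreb3, which was otherwise higher by 5.22.

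Genes of the fetal blood program and cell cycle inhibitors were among those higher in Ezh2 KO. Of 6 tested fetal program genes, 3 were higher. Hmga2, a chromatin protein of fetal stem cells, stood at 6.18 CPM in the Control, 48.2 and 55.0 in Ezh2 KO, with 15.4 and 15.99 in Jarid2 KO, with no overlap between the genotypes (log2 2.99 in Ezh2 KO, SE 0.15, adjusted p = 0.000145). Igf2bp3 and Mycn were the other 2, and in male cells alone 2 of 5 were higher. Of 11 CDK inhibitors and D cyclins, 2 were higher. Cdkn2a, which codes for the inhibitors p16 and p19 and is a known Polycomb target, had 364 UMIs in the Ezh2 KO cells in G2 or mitosis and 0 in both the Control and Jarid2 KO cells. Over the limit of 3 UMIs for the whole Control group, that is at least 39.9-fold higher. Cdkn1c, the gene of p57, stood at 3.23 CPM in the Control and 7.67 and 7.08 in Ezh2 KO (log2 1.12, adjusted p = 0.0483). In male cells alone 0 of the 11 were called by edgeR.

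Genes lower in Ezh2 KO were fewer. Of 12 stem cell markers, 4 fell (Meis1, Hoxb5, Myct1 and Ifitm1) and 2 rose, of which Mllt3, a chromatin reader of stem cells, rose by 0.83. In male cells alone 1 fell and 2 rose. Meis1, a stem cell transcription factor, stood at 81.0 CPM in the Control, 47.7 and 53.2 in Ezh2 KO, with 68.0 and 67.1 in Jarid2 KO (log2 -0.76, adjusted p = 0.0202). Apoe, the lipid carrier, fell from 195 CPM to 82.5 and 71.9 (log2 -1.41, SE 0.16, adjusted p = 0.00463), and Selp, the adhesion molecule P-selectin, from 32.5 to 11.5 and 14.7. Mrgpra2b, Dmkn, Nav1, Ffar2, Wfdc21 and Rab26os made up, with Ezh2, Ifitm1, Apoe and Selp, the 10 largest falls among called genes of at least 10 CPM on average whose libraries did not overlap, leaving out Xist, Tsix, Y-linked genes and numbered gene models. Xist, so left out, stood at 1034 CPM in the Control and 0.0772 and 0.0295 in Ezh2 KO. Among the markers of other cell types, edgeR called 2 of 8 T or NK genes higher (Lck and Trbc2; DESeq2 called 4) and 2 of 11 mast cell or basophil genes lower (Il4 and Cyp11a1; DESeq2 called 0), against 1 and 0 in male cells alone. By edgeR and DESeq2 alike, 1 of 11 megakaryocyte genes (Mrvi1) and 1 of 11 dendritic genes (Ccr9) were higher and 1 of 7 neutrophil or macrophage genes (Cd68) lower, against 0, 0 and 1 in male cells alone. Of 12 myeloid genes edgeR called 0, 4 had an unadjusted p under 0.05 and DESeq2 called 2 lower, Elane and Ly6c2.

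In male cells alone 147 genes were called in place of 468. Of the 20 named genes, 14 kept their calls under all 13 alternatives run. Rab26os lost its call without Ezh2 KO replicate 2 (adjusted p up to 0.365 over its alternatives) and Ifitm1 without either Ezh2 KO library (up to 0.144), and both were lost in male cells alone, as was Ffar2 (up to 0.0641). Wfdc21 lost its call with DESeq2 and among genes of at least 10 CPM (up to 0.0729).

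Jarid2 KO differed from Control in few genes. Of 14098 genes, 14 (0.0993%) were higher and 9 (0.0638%) lower, 881 had an unadjusted p under 0.05, and DESeq2 called 57. Of 12 B lineage genes edgeR called 0, with a median of 1.40, while 8 had an unadjusted p under 0.05 and DESeq2 called 4. Of 12 myeloid genes edgeR and DESeq2 called 0, and 5 had an unadjusted p under 0.05. The lists that held calls were the lymphoid one, with 2 of 12 higher (Ccr9, which is also the 1 of 11 dendritic genes called, by 2.38, and Mn1 by 1.87), and the fetal program, with 2 of 6 higher (Hmga2 by 1.28 and Mycn by 1.58). Of 11 mast cell or basophil genes 1 was lower, the IgE receptor gene Fcer1a (log2 -3.10). DESeq2 called 4 lymphoid, 2 fetal, 2 dendritic and 1 mast cell or basophil genes. With male cells alone edgeR called 0 of the lymphoid, fetal and dendritic genes, and in the mast cell or basophil list Prss34 in place of Fcer1a. Ebf1 stood at 11.9 and 11.8 CPM in Jarid2 KO against 2.84 in the Control (log2 2.00, adjusted p = 0.0556).

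Of the 23 genes, 8 met the rule for naming. Igf2r, the receptor that clears insulin-like growth factor 2, stood at 3.13 CPM in the Control, 12.2 and 15 in Jarid2 KO, and 14.8 and 17.5 in Ezh2 KO (log2 2.05 in Jarid2 KO, SE 0.17, adjusted p = 0.0152). Itsn1, a scaffold of endocytosis, stood at 7.03 CPM in the Control, 27.3 and 29.8 in Jarid2 KO, and 12.6 and 15.3 in Ezh2 KO (log2 1.96, SE 0.15, adjusted p = 0.0152). Hmga2 rose by 1.28 (adjusted p = 0.0378), Tox, a nuclear factor of lymphoid development, by 1.27, and the transporter gene Slc16a11 by 1.21. Pbx3, a partner of Hox proteins, fell from 6.54 CPM to 2.94 and 3.50, while in Ezh2 KO it stood at 31.3 and 33.2. Gdpd3 and Gnb4 were the other 2 that fell. Both knockouts share the 1 Control library, so their values against it are not independent.

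In male cells alone 3 genes were called in place of 23, and Itsn1 was the 1 named gene called there (log2 2.36, adjusted p = 0.0255). Igf2r stood at 1.64 there with an adjusted p of 0.284 and Hmga2 at 0.63 with an adjusted p of 0.919. Tox, Pbx3 and Gnb4 lost their calls without Jarid2 KO replicate 2, with adjusted p over all alternatives up to 0.936, 0.875 and 0.983. Slc16a11 and Gdpd3 lost theirs without predicted doublets, and Gnb4 stood at 0.089 in male cells alone. The count of 23 became 89 without Jarid2 KO replicate 1, 82 without Ezh2 KO replicate 1 and 45 without Ezh2 KO replicate 2.

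Set against each other, the knockouts differed in 400 genes (2.84%) that were higher and 755 (5.36%) that were lower in Jarid2 KO. The same 11 of 12 B lineage genes were lower in Jarid2 KO (11 of 11 in male cells alone), as were 4 of 12 lymphoid genes (5 in male cells alone). Of 12 stem cell markers 4 were higher and 2 lower, against 0 and 2 in male cells alone. Of 12 myeloid genes, 6 were higher and 0 lower, with a median of 0.61, and 6 were higher in male cells alone. Elane, the gene of neutrophil elastase, stood at 2965 CPM in the Control, 1862 and 2011 in Ezh2 KO, with 4166 and 5929 in Jarid2 KO (log2 1.38, adjusted p = 0.00581), and it lost its call without either Ezh2 KO library. Cells with at least 3 myeloid markers at 5000 UMIs numbered 3928 to 5662 per transplant library, or 98.2% of cells in the Control, 90.2% and 91.4% in Ezh2 KO, with 97.9% and 99.1% in Jarid2 KO, against 331 to 986 at baseline; myeloid RNA outside the cells was not measured and its part was not tested. The MHC class II genes H2-Aa, H2-Ab1 and H2-Eb1 were higher by 1.85, 1.27 and 1.87, though H2-Aa lost its call with DESeq2 and among genes of at least 10 CPM (adjusted p up to 0.0568). With Ciita, which drives class II genes, they were the 4 of 11 dendritic genes that were higher, and Ccr9 was lower; in male cells alone 4 were higher and 1 lower. Cells with at least 3 dendritic markers at 5000 UMIs moved with them, at 17.7% and 15.5% of Jarid2 KO cells in G2 or mitosis, 7.36% and 7.13% of Ezh2 KO ones and 9.16% of Control ones, and their part in the rise was not tested. H2-Eb1 stood at 29.4 and 34.1 CPM in Jarid2 KO, 5.23 and 12.6 in Ezh2 KO and 11.97 in the Control. Megakaryocyte genes went the other way, with 5 of 11 lower (1 of 10 in male cells alone), and Prg2, an eosinophil granule gene, was higher by 2.31 but stood at -1.43 in male cells alone. Among the largest falls, Pbx3 stood at -3.32, Bex1 at -3.28 and Bex4 at -5.39. The count of 1155 was 735 without Ezh2 KO replicate 1 and 687 in male cells.

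**Figure D3:**
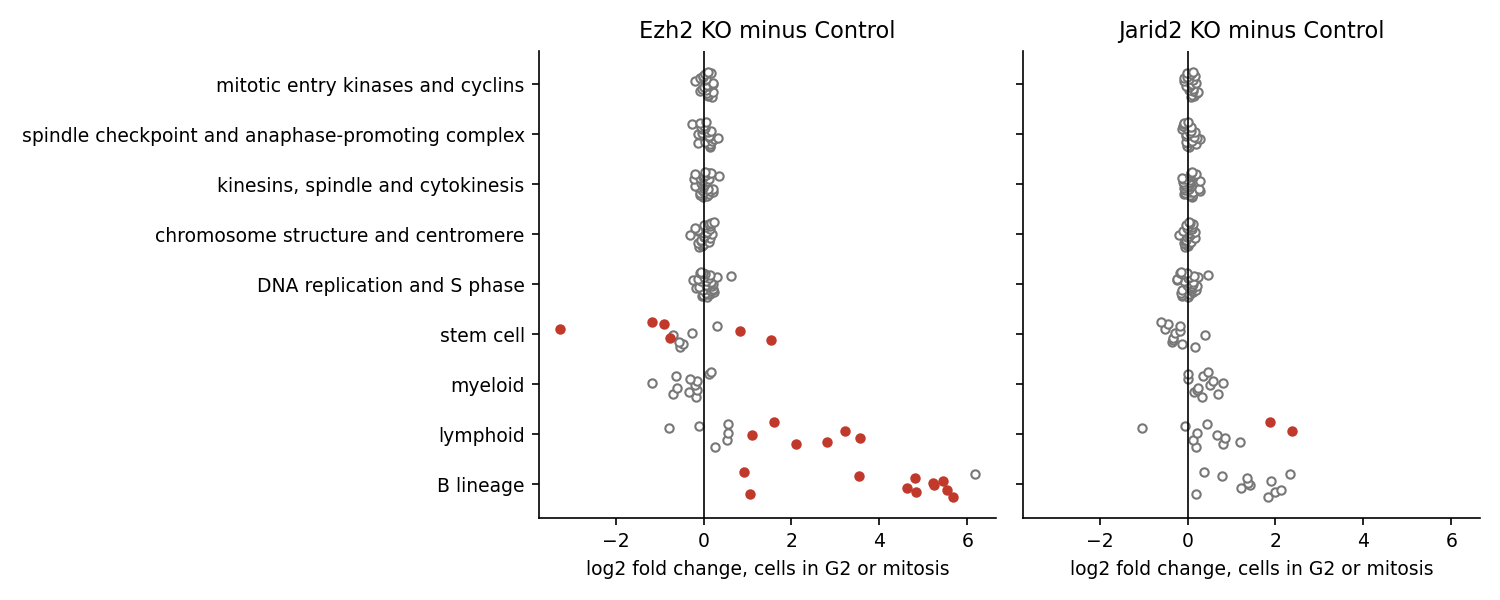
Log2 fold change (x axis) of each tested gene of 9 lists (y axis) in cells in G2 or mitosis, for Ezh2 KO (left) and Jarid2 KO (right) against Control; red points passed an adjusted p of 0.05 and open points did not. Division genes crowd around 0 in both panels and 11 B lineage genes lie to the right in Ezh2 KO; the open point furthest right, Ms4a1, had 0 UMIs in the Control and its position is a fitted value.

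**Figure D4:**
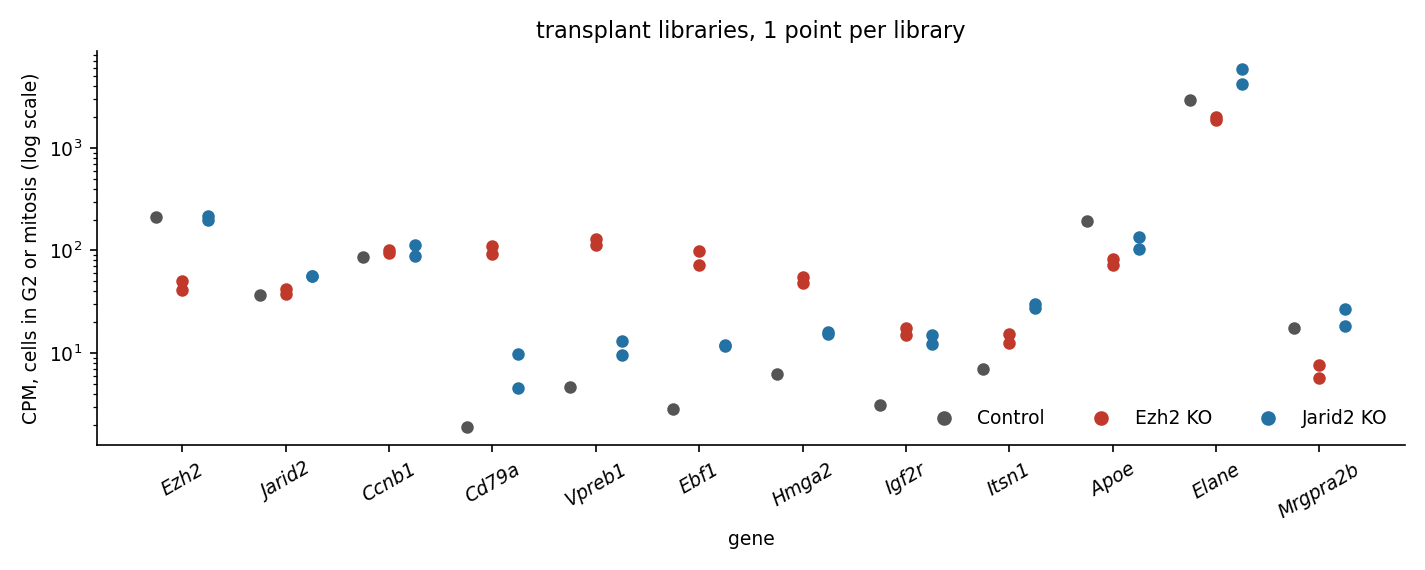
Level in CPM on a log axis (y axis) of 12 genes (x axis) in cells in G2 or mitosis, 1 point per transplant library coloured by genotype. Ezh2 is low in both Ezh2 KO libraries (41.5 and 49.9), B lineage genes are high there, and Ccnb1, a rule marker, is level.

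The baseline libraries gave values that the naming did not use. Of the 10 genes named as higher in transplanted Ezh2 KO cells, 7 were higher in both baseline Ezh2 KO libraries than in both baseline Controls, among cells that met the same rule. Of 8831 genes of at least 10 CPM there, 11.5% were. Vpreb1, for example, stood at 504 and 763 CPM in Ezh2 KO and 103 and 396 in the Control. Of the 10 named as lower, 6 reached 10 CPM on average at baseline, and 3 of these were lower there (Ezh2, Nav1 and Ffar2), beside 32.4% of all such genes. Wfdc21 was higher, but stood at 0.875 and 1.06 CPM in Ezh2 KO and 0.0464 and 0.157 in the Control. All 5 genes named as higher in transplanted Jarid2 KO cells were higher at baseline, beside 9.53% of all genes. Hmga2 stood at 51.6 and 55.9 CPM in baseline Jarid2 KO and 28.7 and 31.9 in the Control, and Itsn1 at 87.1 and 98.5 against 36.8 and 71.6. Of the 3 named as lower, 2 reached 10 CPM, and Pbx3 was lower, beside 14.2% of all genes, but barely: its higher Jarid2 KO library stood at 38.90 CPM and its lower Control at 38.91. Of the 10 genes named as higher in Jarid2 KO than in Ezh2 KO, 6 reached 10 CPM at baseline. There 2 of the 6 were higher, beside 29.5% of all genes. All 10 named as lower in that comparison were lower at baseline, beside 16.1%. With 2 libraries against 2 these are counts without a test. The B lineage genes Cd79a, Igll1, Vpreb1 and Vpreb3 move together and stand in 2 of these counts, which thus do not hold independent genes.

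A further fit asked whether a genotype difference was larger in cells in G2 or mitosis than in the other cells of the same libraries. It called 396 of 15248 genes (2.6%) for Ezh2 KO against Control, 48 (0.315%) for Jarid2 KO against Control and 1228 (8.05%) for Jarid2 KO against Ezh2 KO. The split of the cells used the 8 rule markers, and 4, 4 and 3 of them are among these calls. The calls on those markers are no result, since their values chose the cells. DESeq2 called 44, 3 and 167, and male cells alone gave 12, 4 and 73. Of the edgeR calls, 64.4% were positive for Ezh2 KO against Control and 32.1% for Jarid2 KO against Ezh2 KO, but with median-ratio scaling these became 53.1% and 54.2%.

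Rgs1, an inhibitor of G protein signalling, showed the pattern with its values. In the other cells it stood at 51.2 CPM in the Control, 80.3 and 85.6 in Ezh2 KO, with 41.4 and 53.6 in Jarid2 KO. In cells in G2 or mitosis it stood at 29.6, 23.8 and 28.4, and 23.9 and 26.0, so the Ezh2 KO libraries were not above the others there (difference -0.85, SE 0.09, adjusted p = 3.8e-06). Btg1, an antiproliferative gene, differed by -0.59 and the histone gene Hist1h2ac by -0.69 in the same comparison. Il7r, in contrast, differed by 1.29. In male cells alone Rgs1 and Il7r lost these calls (adjusted p = 0.258 and 0.633), while Btg1 and Hist1h2ac kept theirs under the alternatives run. Of the positive ones, Mzb1 and the immunoglobulin gene Ighm reversed when predicted doublets were removed. Their differences of 2.82 and 1.60 became -0.16 and -0.035, and the cause was not tested. For Jarid2 KO against Control the mitosis genes Nuf2 and Kif20a differed by 0.65 and 0.61, where Nuf2 stood at 13.6 CPM in the Control's other cells and 9.15 and 10.03 in those of Jarid2 KO. Both lost their calls with DESeq2 and in male cells alone, and Kif20a also without Jarid2 KO replicate 2. These 2 genes rise with the rule markers that split the cells, so their differences are a description only. The other cells of the Control had a median of 12537 UMIs and those of Jarid2 KO 14713 and 13720, and the part of depth in which cells the rule takes was not tested.

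By summed RNA, stem cell markers were lower in cells in G2 or mitosis in all 5 libraries for 11 of 12 genes, dendritic genes for 10 of 12 and lymphoid genes for 10 of 12, beside 38.8% of all genes. Myeloid genes were higher in all 5 for 9 of 12, beside 32.9% of all genes. At 5000 UMIs in transplanted marrow, 12.5% ± 1.01 (SD, n = 5) of cells with at least 3 mast cell or basophil markers were in G2 or mitosis, against 10.3% of cells without, and the B lineage gave 14.5% ± 2.90 against 10.4%. Both were higher in 5 of 5 libraries, though the Control's B lineage value was 2 of 19 cells (10.5%) against 10.4%. Summed mast cell or basophil RNA of these cells over that of the others was only 0.924 to 1.003. By gene, 2 of that list's 12 were higher and 6 lower in all 5 libraries. At baseline 7.53% of cells with those markers were in G2 or mitosis, against 8.32% of cells without, higher in 3 of 6 libraries. Summed B lineage RNA of these cells over that of the others was 0.4001 in the Control, 1.10 and 1.29 in Ezh2 KO, with 0.266 and 0.254 in Jarid2 KO. By gene, 8 of the 12 were higher in these cells in the Control, 9 and 10 in Ezh2 KO, with 4 and 4 in Jarid2 KO. Ighm, 1 of the 12, averaged 128 CPM in these cells and 403 in the others over the 5 libraries. Counted by cell, the myeloid list went the other way: 10.2% ± 0.81 of myeloid-marked cells were in G2 or mitosis, against 21.5% of the 47 to 613 cells per library without those markers, lower in 5 of 5. Stem-marked cells gave 9.82% ± 1.17 against 10.9%, lower in 3 of 5. In the baseline libraries the stem-marked cells gave 5.97% ± 0.83 (SD, n = 6) against 18.9%, lower in 6 of 6. Because these genes are read in the same RNA as the rule markers, no test is given. Of the markers for other cell types, Gp6, Cd209d and Slc4a1 had 0 UMIs in these cells, and Cd3e had 2 in all. Summed over their lists, T or NK markers stood at 330 to 566 CPM in these cells and 323 to 504 in the others, of which Nkg7 alone gave 315 to 549 in these cells, dendritic markers at 268 to 506 and 448 to 904, megakaryocyte markers at 186 to 223 and 215 to 251, and mature red cell markers at 18.5 to 63.5 and 19.3 to 123.

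Surface protein gave a reading apart from RNA, available at baseline only. Levels were centred log ratios, in which a protein is set against the mean of the 6 antibodies in the same cell. CD48, which marks progenitors that have left the stem cell state, was higher by 0.746 ± 0.110 (SD, n = 6) in cells in G2 or mitosis, in 6 of 6 libraries. CD201, a stem cell marker encoded by Procr, was lower by 0.363 ± 0.092, also in 6 of 6. The Sca1 tag was lower by 0.294 ± 0.077 in 6 of 6. Each of the 3 had an exact sign-flip permutation p = 0.0312 (two-sided), the smallest that 6 libraries allow, and a Benjamini-Hochberg value of 0.0625 over the 6 antibodies. CD150 and CD135 differed by -0.064 ± 0.099 and -0.080 ± 0.115, and CD117, the c-Kit protein, by 0.056 ± 0.072, each within its spread between libraries. Within 3 bins of RNA depth, CD117 was instead lower by 0.094 (adjusted exact permutation p = 0.0469).

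**Figure D5:**
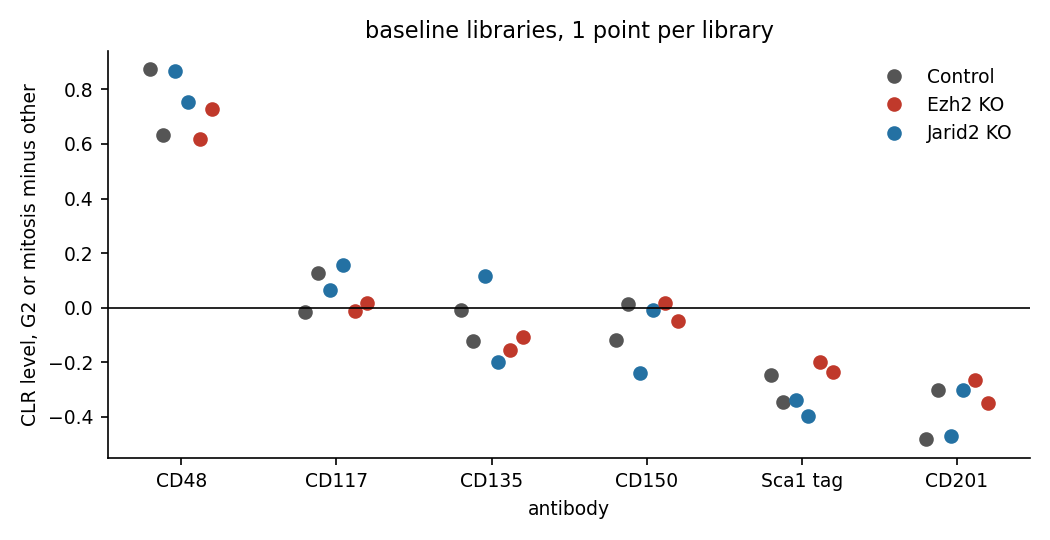
Difference in centred log ratio (y axis) between baseline cells in G2 or mitosis and other cells for 6 antibodies (x axis), 1 point per library coloured by genotype. CD48 lies above 0 and CD201 and the Sca1 tag below 0 in all 6 libraries, while the other 3 scatter around 0.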

How the data were processed

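The authors deposited 10x Genomics matrices of UMI counts per gene and barcode, made with Cell Ranger 6.1.2 (transplant) and 7.2.0 (baseline) per the file headers. The submitters' processing notes name Cell Ranger 3.1.0, Seurat 3.0 and Partek. From the deposited counts, barcodes were filtered and cells chosen as the report states, with doublets kept. Deposited totals were 90043219 to 134705053 UMIs per transplant library and 93272264 to 144399414 per baseline library. Between 2326 and 3590 transplant barcodes per library exceeded the mitochondrial limit, and pairs of transplant libraries shared 5 to 15 kept barcodes. Counts of cells in G2 or mitosis were summed per library and tested across the 5 sums with edgeR 4.0.16 (TMM scaling, filterByExpr, quasi-likelihood, adjusted p under 0.05). The second fit used 10 sums with library as a block. DESeq2 1.42.0 was the alternative. The fits were tested on simulated data. Doublets were predicted with Scrublet in scanpy 1.11.5, whose automatic threshold marked 3 to 139 cells, so the highest-scoring 6.63% to 7.37% were taken. Male cells were those with Y-linked UMIs and no Xist UMI. Antibody counts were converted to centred log ratios, and lineage markers were counted after thinning. Genes named were, per comparison, up to 10 rises and 10 falls (5 and 5 in the second fit) with adjusted p under 0.05, at least 10 CPM on average and libraries that did not overlap, leaving out Xist, Tsix, Y-linked genes and numbered gene models, beside the rule markers, Ezh2, Jarid2 and list examples. The cells, lists and rules were chosen with earlier results of these data known. A few results are not reported here. Other settings tried are in the closing section.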

Additional observations from a re-analysis of the deposited data

Results flagged for a closer look

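In Ezh2 KO against Control, the difference of the genotype change between cells in G2 or mitosis and other cells was 2.87 for Prg2, 2.82 for Mzb1, 1.96 for Ly6d, 1.60 for Ighm and 1.29 for Il7r on the log2 scale. It was -0.85 for Rgs1, -0.72 for Smad7, -0.69 for Hist1h2ac, -0.59 for Btg1 and -0.57 for Letm2. All 10 passed the test of the difference itself. In Jarid2 KO against Control it was 0.83 for Il7r, 0.71 for Arpp21, 0.65 for Nuf2, 0.61 for Kif20a and 0.60 for Neil3. Nuf2 and Kif20a rise with the markers that split the cells, so their values are a description only. On the other side the difference was -0.83 for Ighm, -0.37 for Casp1 and -0.19 for Elane.

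In Jarid2 KO against Ezh2 KO the same difference was 1.11 for Gdpd3, 0.72 for Rgs1, 0.67 for Hbb-bt, 0.61 for Gem and 0.60 for Mettl27. It was -2.85 for Prg2, -2.60 for Mzb1, -2.43 for Ighm, -1.93 for Ly6d and -1.30 for Cd79a.

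The transplant matrices, whose cells were not labelled with antibodies as far as the labels say, list the antibody features with 225 UMIs in the Control, 269 and 366 in the Ezh2 KO libraries, with 272 and 313 in those of Jarid2 KO. The baseline libraries held 14330271 to 25234137.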

How the results depend on the processing

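The share differences moved by less than the full-depth spread between knockout libraries under each alternative run, though their sign changed under some. Thinned shares were far smaller, so that spread sets no tight limit for them. Leaving out 1 library of a pair cannot move a mean beyond that spread, so those runs do not measure stability by it. With a mitochondrial limit of 20% the share differences were 1.90, 0.89 and -1.01 points in place of 0.74, 0.33 and -0.40. With male cells only they were -1.08 (Ezh2 KO against Control), -0.47 (Jarid2 KO against Control) and 0.61 points (Jarid2 KO against Ezh2 KO). Leaving out 1 library gave -1.01 to 2.48, -1.11 to 1.77 and -2.15 to 1.34 points. Genes called in cells in G2 or mitosis (468, 23 and 1155 in the same order) became 147, 3 and 687 with male cells only, 1226, 282 and 2193 with no filter on low counts, and 102, 3 and 242 with a mean of at least 10 CPM. Jarid2 KO against Control gave 39 genes with at least 4 markers, 10 with at least 6 and 57 with DESeq2. Leaving out 1 library gave 374 to 674, 20 to 89 and 735 to 1177. In the 4 knockout libraries, a fit with the replicate number as a block called 1541 genes against 1177 without the block. Deviations of same-numbered libraries had a correlation of 0.01 over 7916 genes, and whether such libraries shared a batch was not tested.

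Calls of a difference between cell states (396, 48 and 1228) became 12, 4 and 73 with male cells only and 44, 3 and 167 with DESeq2. Ezh2 KO against Control gave 616 with at least 6 markers, 656 without predicted doublets and 827 with no filter. Jarid2 KO against Control gave 84 with at least 4 markers, 75 with at least 6, 81 without predicted doublets, 153 with no filter and 15 with at least 10 CPM. Leaving out 1 library gave 177 to 848, 27 to 143 and 475 to 1255. Where the lone sample of a group was left in, it was assumed to vary like the others. The cause was not tested for any of these.

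Reversed values were 0.089 for Gnb4 (Jarid2 KO against Control), -1.43 for Prg2 (Jarid2 KO against Ezh2 KO) and -0.20 for Hbb-bt (cell states, Jarid2 KO against Ezh2 KO) with male cells only, and -0.16 for Mzb1 and -0.035 for Ighm (cell states, Ezh2 KO against Control) without predicted doublets. With log2 antibody UMIs, CD48 (1.30), CD117 (0.30), CD201 (-0.30) and the Sca1 tag (-0.20) passed at an adjusted exact permutation p of 0.0469. Within 3 bins of RNA depth CD48 (0.65), CD201 (-0.26) and the Sca1 tag (-0.11) passed and CD117 reversed (-0.094). Leaving out 1 library gave 0.72 to 0.77 for CD48, -0.38 to -0.34 for CD201, -0.31 to -0.27 for the Sca1 tag, 0.04 to 0.07 for CD117, -0.12 to -0.06 for CD135 and -0.08 to -0.03 for CD150. Of the named genes, 14 of 20, 1 of 8 and 16 of 20 kept their calls under all alternatives run. The Control has 1172 of these cells in 1 library, and the shallowest library by median UMIs of these cells is Ezh2 KO replicate 2 (21042).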
